A study of Mus musculus with 13 samples.

Results

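Round spermatids sorted from the testis of mice at postnatal day 25 were set against whole testis of mice of the same age, in 7 of the 13 RNA sequencing libraries of a study of the gene Wfdc15a. The round spermatid libraries came from 2 heterozygous (Het 1 and Het 2) and 2 knockout samples (KO 2 and KO 3), and the testis libraries from 1 heterozygous (Het 1) and 2 knockout samples (KO 2 and KO 3). Every one of these 7 libraries is therefore labelled as carrying at least 1 mutant Wfdc15a allele, and none is wild type. The labels give neither the part of the gene that was deleted nor the mouse strain. Whether each library had its own mouse is not stated, and the p-values below rest on a spread between libraries that may be technical.

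Whole testes had the tunica albuginea, the outer capsule, removed before total RNA was extracted with Isogen, and about 2 ng entered each library. Round spermatids were isolated by fluorescence-activated cell sorting after staining with Vybrant DyeCycle Green, a DNA dye for living cells, and 100 to 200 of them were lysed directly in RLT plus buffer. Both kinds of library were made by Smart-seq2, which copies polyadenylated RNA along its whole length and does not record the strand. Cell type, lysis and input thus differ together between the groups and cannot be told apart. In such bulk samples, fewer cells of a type and less RNA per cell of that type cannot be told apart either.

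The 7 libraries were chosen by their expression profiles, which are alike within each kind. On the first principal component of the 7 round spermatid libraries of the series, which held 55.6% of the variance, the 4 used here lay between -60.6 and -44.8 and the others between 60.9 and 73.5. On that of the 6 testis libraries, which held 71.6% of the variance, the 3 used here lay between -126 and -121 and the others between 119 and 126. These values describe the choice and support nothing, and every test in the 7 libraries is conditional on it. The other 6 libraries, from WT 1, WT 2 and KO 1 of each kind, are given beside them where they bear on a gene.

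Spermatogenesis takes diploid spermatogonia through meiosis, as spermatocytes, to haploid round spermatids, which then build an acrosome and a tail and repack their DNA with protamines. Germ cells develop within tubules formed by Sertoli cells, which nurse them, and contractile peritubular myoid cells, while Leydig cells, which make testosterone, lie between the tubules with vessels and macrophages. Transcription factors such as MYBL1 in pachytene spermatocytes and CREM in round spermatids drive large sets of testis genes in the mouse, and many of the resulting mRNAs are stored for later translation. At postnatal day 25 the first wave of mouse spermatogenesis has reached round spermatids but not yet elongated spermatids or sperm.

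Promoters of 5 genes whose levels are described below hold letters known from sites of these factors: AACTGCC, a core of the MYB site, in Piwil1, Pgk2 and Tekt4, and TGACGT, which is part of the cyclic AMP response element bound by CREM, in Ldhc and Dazl. Each is printed 5′ to 3′ on the gene's own strand, from 250 bases before its start to 50 after, as RefSeq gives it on GRCm38.p6, and capitals mark the matched letters on either strand. Piwil1, which makes a partner protein of piRNAs, is at chr5:128735996-128736295 (+). Pgk2, the glycolytic phosphoglycerate kinase of germ cells, is at chr17:40208560-40208859 (-). Tekt4, a filament protein of the tail, is at chr17:25471340-25471639 (+). Ldhc, the lactate dehydrogenase of germ cells, is at chr7:46861013-46861312 (+). Dazl, an RNA-binding protein of germ cells, is at chr17:50293571-50293870 (-).
Piwil1: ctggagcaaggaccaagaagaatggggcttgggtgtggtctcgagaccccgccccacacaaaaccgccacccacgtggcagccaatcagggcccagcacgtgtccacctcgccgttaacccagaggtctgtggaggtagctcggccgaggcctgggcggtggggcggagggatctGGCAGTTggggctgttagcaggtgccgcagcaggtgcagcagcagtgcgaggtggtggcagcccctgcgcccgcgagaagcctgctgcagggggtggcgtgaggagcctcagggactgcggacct
Pgk2: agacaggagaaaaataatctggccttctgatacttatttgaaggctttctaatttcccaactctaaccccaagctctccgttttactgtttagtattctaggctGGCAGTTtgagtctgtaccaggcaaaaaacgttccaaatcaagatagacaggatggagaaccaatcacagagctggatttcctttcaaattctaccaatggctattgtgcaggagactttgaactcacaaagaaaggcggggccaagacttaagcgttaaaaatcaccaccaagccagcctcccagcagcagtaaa
Tekt4: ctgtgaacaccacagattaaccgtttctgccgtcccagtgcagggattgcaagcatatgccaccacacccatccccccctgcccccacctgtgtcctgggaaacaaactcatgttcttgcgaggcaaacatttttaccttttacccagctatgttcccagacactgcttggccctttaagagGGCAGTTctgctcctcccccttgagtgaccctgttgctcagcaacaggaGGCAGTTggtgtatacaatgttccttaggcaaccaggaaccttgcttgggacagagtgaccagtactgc
Ldhc: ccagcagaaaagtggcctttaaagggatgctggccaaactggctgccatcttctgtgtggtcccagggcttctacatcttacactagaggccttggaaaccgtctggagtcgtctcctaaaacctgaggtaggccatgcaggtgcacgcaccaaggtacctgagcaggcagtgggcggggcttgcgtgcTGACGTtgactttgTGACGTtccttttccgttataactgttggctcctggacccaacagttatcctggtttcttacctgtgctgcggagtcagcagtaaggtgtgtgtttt
Dazl: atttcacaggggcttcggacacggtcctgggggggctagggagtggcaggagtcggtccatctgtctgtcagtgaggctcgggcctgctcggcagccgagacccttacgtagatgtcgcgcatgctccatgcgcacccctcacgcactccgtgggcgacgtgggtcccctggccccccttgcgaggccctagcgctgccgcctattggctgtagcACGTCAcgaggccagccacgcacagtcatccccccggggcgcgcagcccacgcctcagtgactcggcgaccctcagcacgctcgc

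The totals that scale each library, worked out from the deposited value for no read, ran from 10825690 to 17069475 reads in round spermatids. In testis they ran from 10419944 to 15792284 reads. Reads summed over genes were above this total in each round spermatid library and below it in each testis library, so it is not a count of all reads. At these depths the level of 3 reads, which a gene with no read could still reach, was 0.176 to 0.288 RPM (reads per 1000000 reads), counting error only. Round spermatid libraries held 15798 to 16894 genes at 1 RPM or more, and testis libraries held 17498 to 17737. The 10 genes with most reads took 3.84% to 3.97% of a round spermatid library and 3.05% to 3.16% of a testis library. Across genes, log2 values correlated at 0.963 to 0.974 between round spermatid libraries and at 0.974 to 0.980 between testis libraries, against 0.864 to 0.903 between the kinds (Pearson's r, described only). Values of single libraries are given in the order Het 1, Het 2, KO 2 and KO 3 for round spermatids and Het 1, KO 2 and KO 3 for testis.

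Wfdc15a itself, a member of the WAP four-disulfide core family that includes secreted protease inhibitors, has its 3 exons at chr2:164198863-164200130 (-) of mm10. It had 65.00, 71.5, 67.4 and 48.1 RPM in round spermatids, against 48.4, 36.8 and 44.3 RPM in testis. The KO libraries thus held about as many reads of the gene as the Het libraries, and since the deleted part is not known, these reads check no label, and a genotype below means the labelled one. The testis range lay below that of round spermatids except that testis Het 1 was just above round spermatid KO 3. The log2 difference, round spermatids minus testis, was 0.53 ± 0.17 (SE) with an adjusted p of 0.0123 by limma, while the exact two-sided permutation test over the 35 assignments of the 7 libraries gave p = 0.0857, against a smallest possible 0.0286. The call was lost without the testis KO 2 library, at 0.42, and the difference was 0.02 after a correction for transcript length.

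Round spermatids differed from whole testis in most of the transcriptome. Of 18995 genes with at least 1 RPM in 2 or more of the 7 libraries, 3343 were higher in round spermatids (17.6%) and 7555 were lower (39.8%), together 57.4%, at an adjusted p under 0.05 by limma on log2(RPM + 1), a scale that understates the change of low genes. On this scale, with no further scaling of the libraries, the falls were also the larger changes. Among these called genes, a fold change of at least 2 was reached by 1163 higher and 5487 lower genes, one of at least 4 by 14 higher and 1525 lower genes, and one of at least 8 by 0 higher and 201 lower genes. The values of the 2 groups did not overlap for 10861 genes (57.2%).

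How many genes counted as higher depended on the scaling of the libraries. The median gene differed by -0.32 on log2(RPM + 1) with no further scaling, by 0.44 with libraries centred on their medians, by 0.05 after quantile normalization and by -0.09 with voom on the recovered reads. Higher genes were 30.7% of all called genes with no further scaling, 70.8% when centred, 53.0% after quantile normalization and 45.2% with voom. The sizes of the changes moved too, and the fold changes above were counted with no further scaling only. Ssxb1, the largest named rise, was at 2.40 with no further scaling and at 3.16 when centred. Under all 4 scalings 2993 genes were called higher (15.8%) and 3400 lower (17.9%), and 359 were called in opposite directions by 2 of the scalings. Differences are given on log2(RPM + 1) with no further scaling and can be read against the median of -0.32. Counts for gene lists are on the same scale, to be read beside 17.6% higher and 39.8% lower among all genes tested. The higher and then the lower genes under all 4 scalings follow in brackets, to be read beside 15.8% and 17.9%. Each gene that is named as higher or lower held its direction and call under all 4 unless an exception is stated.

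**Figure D1:**
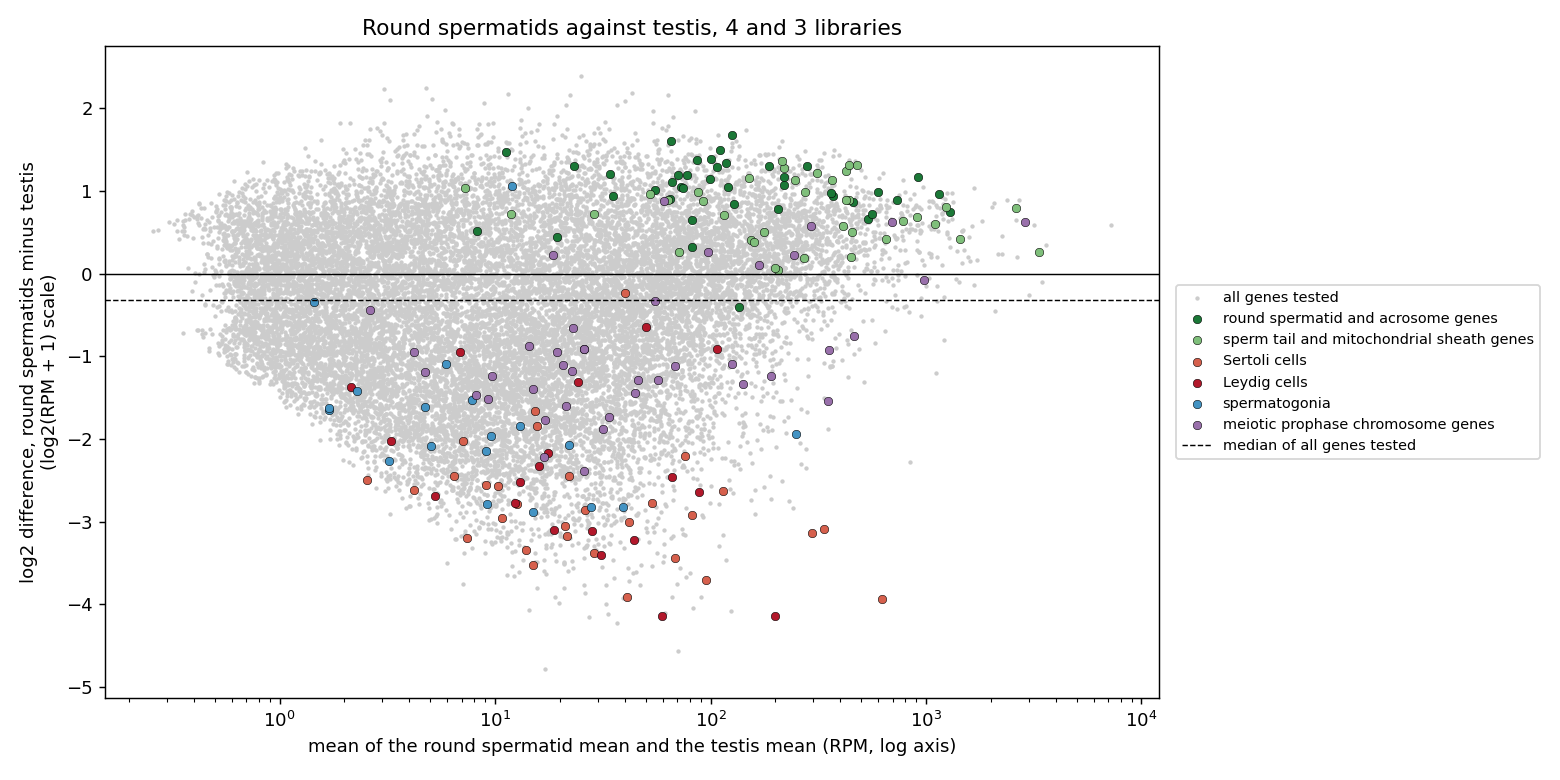
Mean of the round spermatid mean and the testis mean (RPM, log axis) against the log2 difference of round spermatids minus testis for the 18995 genes tested. The genes of 6 lists are coloured, and the median of all genes, -0.32, is a dashed line. Most Leydig and Sertoli genes lie far below the line and most spermatid genes above it (Tjp1, of Sertoli cells, is at -0.24 and Gba2, of spermatids, at -0.41). On this scale, with no further scaling of the libraries, no called gene is higher by 8-fold or more.

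Sertoli cell genes were lower in round spermatids almost without exception: 0 of the 30 genes tested were higher and 29 lower in round spermatids (0 and 29 under all 4 scalings), beside 17.6% and 39.8% of all genes tested, at a median of -2.89. Summed over the list, Sertoli genes reached 317 to 577 RPM in round spermatids, against 3635 to 3934 RPM in testis, or 11.7% of the testis mean. Clu, the secreted chaperone clusterin, had 45.4, 46.1, 129 and 122 RPM in round spermatids, against 1149, 1159 and 1204 RPM in testis. Every round spermatid library was far below every testis library, with the KO pair above the Het pair. The difference was -3.93 ± 0.28 (SE, limma adjusted p = 7.7e-09). Amhr2, the receptor for anti-Müllerian hormone, had 9.06, 7.94, 17.2 and 19.6 RPM in round spermatids, against 146, 194 and 189.8 RPM in testis, a difference of -3.70. Aldh1a1, an enzyme that makes retinoic acid, and Gstm6, a glutathione transferase, differed by -3.09 and -2.92. Tjp1, a tight junction protein, was the member not called, at -0.24. It is named after its value was seen.

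Leydig cell genes were lower throughout: 0 of the 19 genes tested were higher and 19 lower in round spermatids (0 and 15 under all 4 scalings), at a median of -2.52. Their sum was 221 to 297 RPM in round spermatids, against 1179 to 1437 RPM in testis. Cyp17a1, a steroid hydroxylase of androgen synthesis, had 22.6, 21.3, 8.26 and 39.3 RPM in round spermatids, against 448, 396 and 284 RPM in testis. Its lowest testis library was more than 7 times its highest round spermatid library, and its difference was -4.14 ± 0.32 (SE, limma adjusted p = 1.9e-08). Cyp11a1, which makes the first steroid from cholesterol, had 5.53, 7.39, 2.52 and 7.52 RPM in round spermatids, against 119, 129.5 and 90.5 RPM in testis. The groups stayed apart, with a difference of -4.15. Akr1cl and the lipoprotein receptor Scarb1 differed by -2.64 and -2.46. Pgrmc1, a haem-binding membrane protein expressed well beyond Leydig cells, differed by -0.91, which was -0.15 and not called when libraries were centred. In the other 6 libraries the Leydig median was -1.42.

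Peritubular myoid genes were mostly lower. Of the 15 tested, 1 was higher and 10 lower in round spermatids (1 and 8 under all 4 scalings), at a median of -1.35. Acta2, smooth muscle actin, had 3.93, 3.33, 4.63 and 8.38 RPM in round spermatids, against 123, 132 and 153 RPM in testis. Myh11, the smooth muscle myosin heavy chain, had 0.932, 3.97, 0.762 and 3.76 RPM in round spermatids, against 54.3, 54.2 and 48.00 RPM in testis. Every round spermatid library was far below every testis library for both genes, which differed by -4.56 and -4.15, beside -2.59 for the myosin light chain Myl9 and -2.53 for the tropomyosin Tpm2. Actg2, another smooth muscle actin gene, went the other way at 69.9, 66.3, 52.8 and 50.3 RPM in round spermatids, against 31.96, 45.3 and 29.7 RPM in testis, a difference of 0.74 ± 0.18 (SE, limma adjusted p = 0.00211).

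Markers of the remaining somatic cells were reduced less evenly. Of 20 stromal and matrix genes, 1 was higher and 11 lower, at a median of -0.81 that moved to -0.05 when libraries were centred. Under all 4 scalings 1 was higher and 3 lower, beside 15.8% and 17.9% of all genes. Their sums overlapped, at 702 to 1551 RPM in round spermatids, against 1478 to 2160 RPM in testis. The matrix genes Sparc, Igfbp7, Fbln1 and Col1a1 differed by -2.12, -1.53, -1.52 and -1.27. The groups of Col1a1 overlapped, and it was not called when libraries were centred. Col3a1, a further collagen gene and the member with the highest mean level, had 157, 142, 212 and 398 RPM in round spermatids, against 294, 273 and 499 RPM in testis. Its groups overlapped, with a difference of -0.71 that was 0.05 when libraries were centred. Dcn, which makes the matrix proteoglycan decorin and is named after its values were seen, was the higher member, at 206, 177, 214 and 299 RPM in round spermatids, against 148, 146 and 166 RPM in testis. All 4 round spermatid libraries were above all 3 testis libraries, by 0.52 ± 0.14 (SE, limma adjusted p = 0.00424), whereas in the other 6 libraries the same gene differed by -3.07 and missed the threshold (limma adjusted p = 0.0993).

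Endothelial genes were higher in 0 of 11 cases and lower in 8 (0 and 6 under all 4 scalings), at a median of -1.76. Cldn5, a claudin of vessel walls, had no read in any of the 4 round spermatid libraries and 5.76, 6.90 and 6.84 RPM in testis, and no fold is given against a group at 0. Eng, a co-receptor for TGF-beta, had 1.47, 2.31, 7.38 and 2.41 RPM in round spermatids, against 13.3, 12.47 and 13.2 RPM in testis. Esam, an adhesion molecule, and Kdr, a receptor for vascular endothelial growth factor, differed by -1.76 and -1.86.

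Leukocyte genes were mostly lower. In this list 2 of the 17 genes tested were higher and 12 lower in round spermatids (1 and 7 under all 4 scalings), but its summed level was 1197 to 1291 RPM in round spermatids, against 1121 to 1211 RPM in testis. Most of that sum was Cx3cr1, the fractalkine receptor, which had 954, 993, 961 and 1099 RPM in round spermatids, against 891, 803 and 773 RPM in testis, a difference of 0.28 that was -0.11 after quantile normalization. The complement genes C1qa and C1qc and the lipoprotein gene Apoe differed by -2.30, -2.48 and -2.63, and Lyz2, lysozyme of macrophages, by -1.78. Aif1, a calcium-binding protein known from macrophages and also from the testis, was higher at 182, 143, 191 and 103 RPM in round spermatids, against 76.9, 89.6 and 65.6 RPM in testis, a difference of 0.96 ± 0.18 (SE). Of 6 red blood cell genes tested, 2 were higher and 4 lower (2 and 4 under all 4 scalings). Hba-a1, an alpha globin, had 0.666, 0, 0.410 and 0 RPM in round spermatids, against 23.5, 42.3 and 35.8 RPM in testis. It was at 0 in a pair of round spermatid libraries and differed by -4.78, the largest fall of any gene that passed the rule for named genes, and Hbb-bt, Alas2 and Hbb-bs also fell. Bpgm, the red cell enzyme that makes bisphosphoglycerate, was higher at 113, 106, 110.5 and 97.2 RPM in round spermatids, against 61.9, 67.7 and 64.7 RPM in testis, a difference of 0.71. Slc4a1, the anion exchanger of red cells, was the other higher member and is named after its value was seen, at 0.80.

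**Figure D2:**
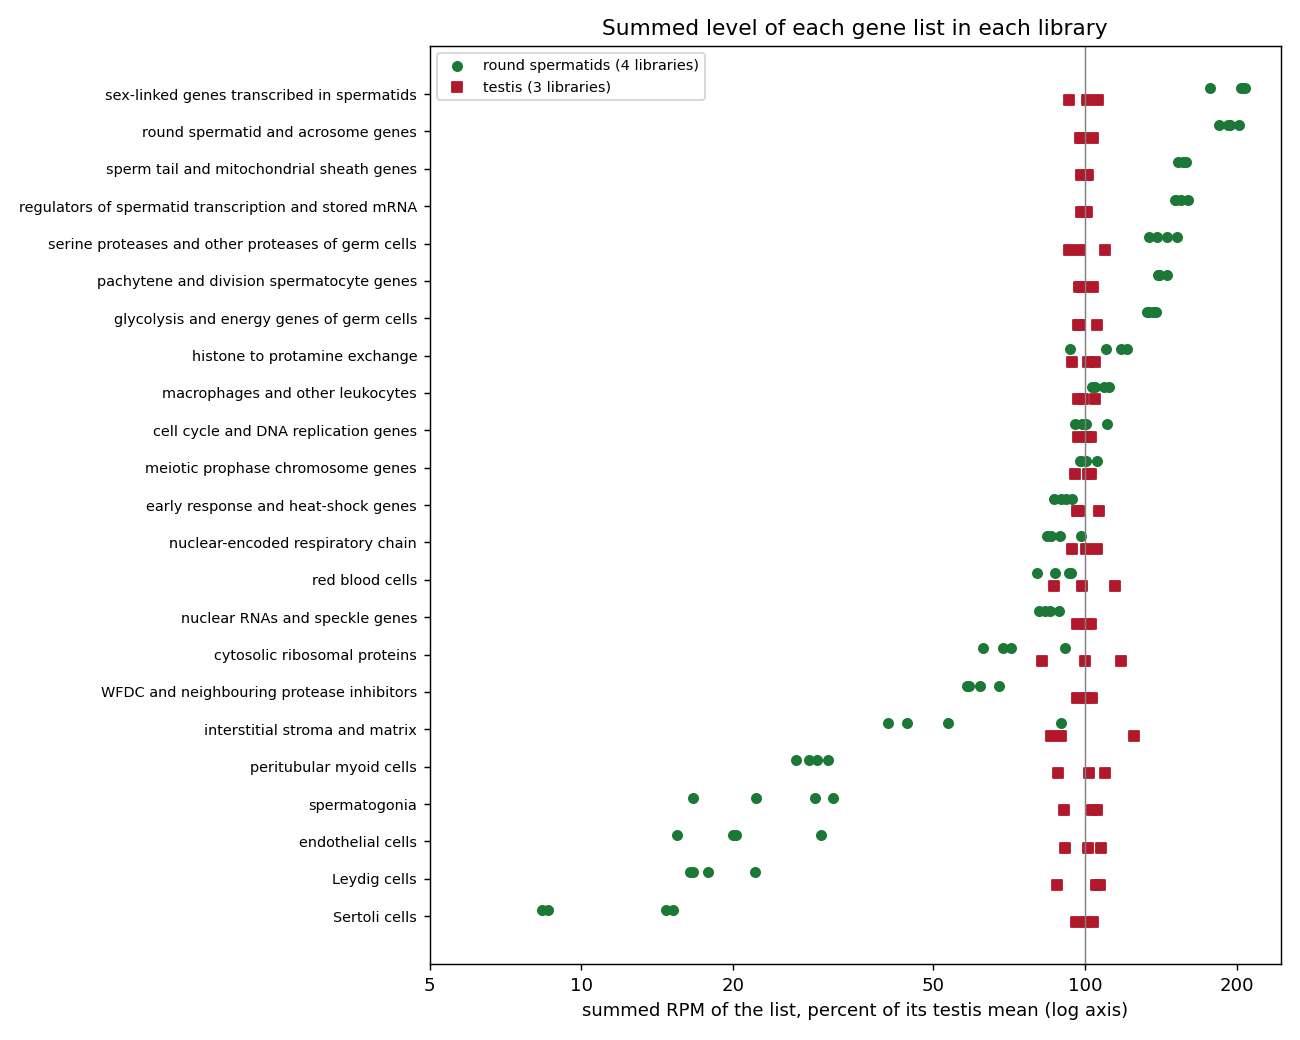
Summed RPM of each gene list in the 4 round spermatid and 3 testis libraries, as a percent of the testis mean of that list, 1 point per library. Sertoli, Leydig and spermatogonial lists sit far under 100% in every round spermatid library, and the spermatid, tail and sex-linked lists sit well above it.

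Spermatogonial genes were mostly lower: of the 19 genes tested, 1 was higher and 17 lower in round spermatids (1 and 14 under all 4 scalings), at a median of -1.94. Kit, the stem cell factor receptor of differentiating spermatogonia, had 5.19, 5.82, 7.91 and 5.54 RPM in round spermatids, against 42.5, 45.98 and 60.1 RPM in testis. Dmrt1, a transcription factor that holds spermatogonia out of meiosis, had 3.86, 1.11, 3.52 and 3.34 RPM in round spermatids, against 24.1, 24.2 and 32.9 RPM in testis. Neither gene's groups overlapped, and the differences were -2.83 and -2.88. Foxo1, a transcription factor of spermatogonial stem cells, and Uchl1, a ubiquitin hydrolase, differed by -2.78 and -2.82. Dazl, whose promoter is printed above, had 87.8, 132, 140.4 and 62.5 RPM in round spermatids, against 361, 435 and 377 RPM in testis, a difference of -1.94 ± 0.20 (SE, limma adjusted p = 3.5e-07). Gfra1, the receptor for the stem cell factor GDNF, was the exception and is named after its values were seen. It had 23.2, 14.6, 13.7 and 14.4 RPM in round spermatids, against 10.5, 5.65 and 6.27 RPM in testis, a difference of 1.06 ± 0.28 (SE, limma adjusted p = 0.00367).

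Genes of meiotic chromosomes were mostly lower. Of the 40 tested, 4 were higher and 27 lower (4 and 12 under all 4 scalings), at a median of -1.10, or -0.34 when libraries were centred. Hormad1, an axis protein that monitors pairing of chromosomes, had 167, 196, 175 and 174 RPM in round spermatids, against 546, 533 and 485 RPM in testis. Sycp3, a core of the synaptonemal complex, had 224, 252, 266 and 239.9 RPM in round spermatids, against 396, 487 and 520.3 RPM in testis. The groups of both genes were apart, at -1.55 ± 0.09 and -0.92 ± 0.10 (SE), although Sycp3 was at -0.16 and not called when libraries were centred. Syce1, a protein of the central element of that complex, was higher, at 819.8, 879, 835 and 837 RPM in round spermatids, against 531, 540.3 and 573 RPM in testis, a difference of 0.62. Mael, which acts in silencing of transposons and in piRNA production, was among the genes with most reads in both kinds of library and had 3466, 3687, 3206 and 3600 RPM in round spermatids, against 2380, 2237 and 2143 RPM in testis. It too was higher in every round spermatid library, by 0.63. Rec8, a meiotic cohesin, and Psmc3ip, a partner in strand exchange, were the other higher members, named after their values were seen, at 0.88 and 0.57. The summed level of the list was 7496 to 8076 RPM in round spermatids, or 100.5% of the testis mean. Mael, which was higher, made up the largest part of that sum.

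Genes of pachytene and dividing spermatocytes were more often higher than lower. Across the list, 19 of the 32 genes tested were higher and 7 lower in round spermatids (16 and 6 under all 4 scalings), at a median of 0.62. The lower members were Piwil1, Piwil2, Tdrd1, Tdrd5 and Tdrd9, which act with piRNAs, the small RNAs that silence transposons, and the transcription factor Pou5f2 and the cell cycle kinase Cdk1. Of these, Tdrd9, Pou5f2 and Cdk1 are named after their values were seen, at -1.09, -2.21 and -0.98, and Cdk1 was not lower under every scaling. Piwil1 had 58.7, 62.9, 49.8 and 63.1 RPM in round spermatids, against 445, 432 and 389 RPM in testis. Its lowest testis library was more than 6 times its highest round spermatid library, with a difference of -2.83 ± 0.12 (SE, limma adjusted p = 6.1e-11), the smallest adjusted p of the list. Piwil2, a second PIWI protein, had 66.00, 52.8, 65.8 and 52.03 RPM in round spermatids, against 433, 428 and 347 RPM in testis. Tdrd1, a Tudor protein that binds PIWI proteins, had 86.6, 89.05, 83.4 and 93.8 RPM in round spermatids, against 478, 407 and 435 RPM in testis, and Tdrd5 had 38.6, 34.4, 30.99 and 46.6 RPM in round spermatids, against 312, 275 and 268 RPM in testis. None of these groups overlapped, and the differences were -2.75 for Piwil2, -2.30 for Tdrd1 and -2.90 for Tdrd5. The helicase Mov10l1, which loads piRNA precursors and stood in another list, had 48.4, 55.98, 58.4 and 56.9 RPM in round spermatids, against 245, 248 and 259 RPM in testis, a difference of -2.17 ± 0.12 (SE). In the other 6 libraries these 5 genes differed by -0.83 (Piwil1), -0.83 (Piwil2), -0.08 (Tdrd1), -1.35 (Tdrd5) and 0.30 (Mov10l1), and 0 of them passed the threshold there, where 8.58% of genes did.

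The higher genes of the spermatocyte list included energy and cell division genes. Pgk2 had 639.5, 649, 579.9 and 672 RPM in round spermatids, against 235, 250.8 and 245 RPM in testis. Every round spermatid library was at more than 2 times every testis library, and the difference was 1.38 ± 0.08 (SE, limma adjusted p = 2.5e-09). Adam3, a sperm surface protein needed for passage into the oviduct, had 2092, 2235, 2179 and 2425 RPM in round spermatids, against 1186, 1068 and 1027 RPM in testis, a difference of 1.03. Ccna1 and Ccnb1, the cyclins of the meiotic divisions, are named after their values were seen. Ccna1 had 552, 551, 463 and 599 RPM in round spermatids, against 189, 202 and 212 RPM in testis, and Ccnb1 had 556, 593, 527 and 633 RPM in round spermatids, against 204, 198 and 234 RPM in testis. Both were higher in all 4 round spermatid libraries, by 1.42 and 1.44. Ldhc had 8680, 8452, 8894 and 8622 RPM in round spermatids, against 6247, 5521 and 5476 RPM in testis, a difference of 0.59 ± 0.05 (SE) that was -0.00 after quantile normalization.

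**Figure D3:**
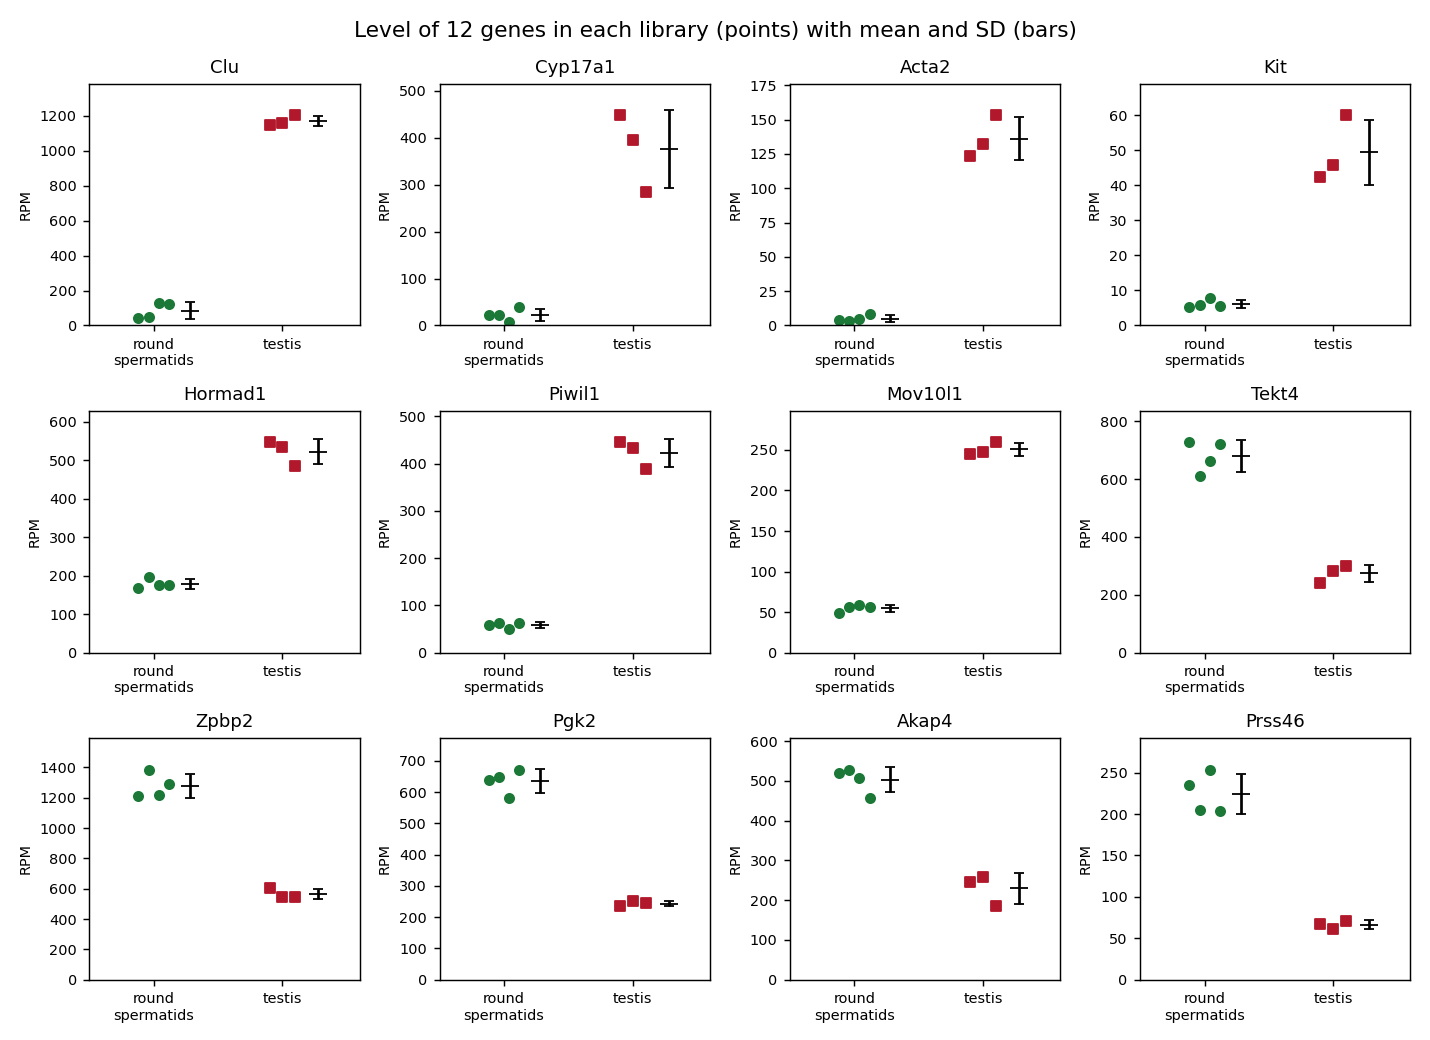
Levels of 12 genes (RPM, axes from 0) in the 4 round spermatid and 3 testis libraries, with 1 point per library and the mean and SD of each group. Somatic, spermatogonial and piRNA genes such as Clu, Kit and Piwil1 are lower in every round spermatid library, while Tekt4, Zpbp2, Pgk2, Akap4 and Prss46 are higher in every one.

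Round spermatid and acrosome genes were higher almost throughout: 37 of the 41 genes tested were higher and 1 lower in round spermatids (37 and 0 under all 4 scalings), at a median of 1.04, and their summed level was 12682 to 13876 RPM in round spermatids, against 6713 to 7122 RPM in testis. Zpbp2, an acrosomal protein that binds the zona pellucida, had 1212, 1386, 1218 and 1290 RPM in round spermatids, against 605, 547 and 543 RPM in testis. The groups lay far apart, with a difference of 1.17 ± 0.07 (SE, limma adjusted p = 2.7e-09). Spaca1, a membrane protein needed to shape the acrosome, had 388, 433, 417 and 357 RPM in round spermatids, against 153, 184 and 147 RPM in testis. Catsper2, a subunit of the sperm calcium channel, had 778, 876, 787 and 745 RPM in round spermatids, against 402, 429.9 and 374 RPM in testis. Both were higher in every round spermatid library, by 1.30 and 0.98. Pdcl2, a phosducin-like protein of germ cells, and Ropn1l, a protein of the fibrous sheath, differed by 0.97 and 0.75. The lower member was Gba2, a glucosylceramidase named after its value was seen, at -0.41, and it was not lower under every scaling.

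Genes of the tail were mostly higher. In this list 33 of the 38 genes tested were higher and 0 lower in round spermatids (28 and 0 under all 4 scalings), at a median of 0.76. Tekt4 had 727, 610.5, 664 and 723 RPM in round spermatids, against 241, 283 and 299 RPM in testis. Tekt2 had 629, 592, 650.1 and 529 RPM in round spermatids, against 244, 254 and 261 RPM in testis. Odf2, a protein of the outer dense fibres, had 3316, 3318, 3474 and 3206 RPM in round spermatids, against 1906, 1889 and 1953 RPM in testis. In each of the 3 genes all round spermatid libraries exceeded all testis libraries, by 1.31 ± 0.09, 1.24 ± 0.09 and 0.80 ± 0.05 (SE). Tekt3, a further tektin, differed by 1.31. The smallest difference was that of the dynein heavy chain Dnah1, named after its value was seen, at 0.04.

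Genes that replace histones by protamines moved both ways. Of 21 genes tested, 6 were higher and 5 lower (6 and 2 under all 4 scalings), at a median of 0.41. Hils1, a spermatid linker histone, and Psme4, a proteasome activator that degrades acetylated histones, were higher at 1.19 and 1.27. Rnf8, a ubiquitin ligase for histones, had 13.7, 12.1, 9.84 and 9.51 RPM in round spermatids, against 42.5, 39.6 and 42.9 RPM in testis, and Sirt7, a deacetylase, had 4.13, 1.76, 2.93 and 2.27 RPM in round spermatids, against 16.9, 14.9 and 25.5 RPM in testis. These 2 genes were lower in every round spermatid library, with differences of -1.81 and -2.42. The other lower members, Kdm3a, Pygo2 and Brd7, were at -0.77, -1.13 and -0.97, of which the last pair is named after its values were seen, and none of the 3 was lower under all 4 scalings. The protamine and transition protein genes Prm1 and Tnp1 are named after their values were seen. Prm1 had 49.1, 42.8, 54.2 and 13.1 RPM in round spermatids, against 26.2, 32.1 and 16.7 RPM in testis, with round spermatid KO 3 below all testis libraries and the groups overlapping, and missed the threshold at 0.52 ± 0.36 (SE, limma adjusted p = 0.218). Tnp1 had 47.8, 50.1, 69.01 and 19.7 RPM in round spermatids, against 26.5, 26.6 and 18.2 RPM in testis, again with round spermatid KO 3 low enough to overlap the testis libraries, a difference of 0.84 ± 0.30 (SE, limma adjusted p = 0.0233).

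Regulators of spermatid transcription and of stored mRNA were mostly higher, with 17 of 28 higher and 5 lower (15 and 4 under all 4 scalings) at a median of 0.48. Crem had 677, 721, 659 and 673 RPM in round spermatids, against 357, 345 and 324 RPM in testis. Tbpl1, the TATA-binding protein relative of germ cells, had 1268, 1349, 1429 and 1304 RPM in round spermatids, against 697, 754 and 722 RPM in testis. Ddx25, a helicase that holds mRNAs for later translation, had 1418, 1448, 1435 and 1562 RPM in round spermatids, against 880.0, 845 and 819 RPM in testis. All 3 were higher without overlap, by 0.99, 0.88 and 0.79. The lower members besides Mov10l1 were Adad2, Celf1, Prkra and Boll, named after their values were seen, at -3.02, -1.93, -1.79 and -0.28. Boll was not lower under every scaling.

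Energy genes of germ cells leaned the same way, with 12 of 22 higher and 5 lower (10 and 0 under all 4 scalings) at a median of 0.54. Besides Pgk2 and Ldhc, the phosphoglycerate mutase Pgam2 had 467, 408, 449.8 and 459 RPM in round spermatids, against 242, 232 and 294 RPM in testis, and the hexokinase Hk1 had 469, 451, 487 and 464 RPM in round spermatids, against 272, 304 and 253 RPM in testis. Their differences were 0.80 and 0.76. The lower members were Slc2a3, Slc25a31, Cyct, Dlst and Pdha2, all but the first named after their values were seen, at -0.80, -0.82, -0.55, -0.46 and -0.36, and 0 of the 5 were lower under all 4 scalings. Among 39 protease genes of germ cells, 21 were higher and 6 lower (19 and 4 under all 4 scalings), at a median of 0.61. Prss46, a testis serine protease, had 236, 205, 254 and 204 RPM in round spermatids, against 67.1, 60.7 and 71.3 RPM in testis, the largest difference of this list at 1.74 ± 0.12 (SE). Prss39 had 387, 366, 382 and 352 RPM in round spermatids, against 133, 154 and 138 RPM in testis, again with every round spermatid library above every testis library, by 1.39. Psma8, the proteasome subunit of spermatocytes, was lower at -1.13.

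Of the WAP domain and neighbouring inhibitor genes, the family of Wfdc15a, 2 of 11 tested were higher in round spermatids and 8 lower (2 and 6 under all 4 scalings), at a median of -1.86. Eppin, a sperm-coating inhibitor gene that Sertoli cells also transcribe, had 10.9, 10.1, 17.9 and 12.49 RPM in round spermatids, against 52.2, 54.8 and 56.9 RPM in testis. Wfdc10 had 2.13, 1.94, 3.40 and 3.48 RPM in round spermatids, against 15.4, 21.9 and 19.5 RPM in testis. Neither gene's groups overlapped, with differences of -2.04 and -2.43, beside -2.85 for Wfdc6a and -2.60 for Wfdc1. The higher members were Wfdc15a and Wfdc3, the second of them named after its value was seen, at 0.90.

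Genes of the X and Y chromosomes, which are silenced in pachytene spermatocytes and partly reactivated in spermatids, moved in both directions. Of 718 X-linked genes tested, 23.1% were higher and 45.8% lower, against 17.3% and 39.6% of 18225 autosomal genes, at a median of -0.59 for the X and -0.32 for the autosomes. The X thus held larger shares of both directions, with its interquartile range from -1.57 to 0.68. In the other 6 libraries the X median was 0.83. Of 52 Y-linked genes, 17 were higher and 7 lower, at a median of 0.59. Chromosome 14 stood highest among the autosomes, with 27.4% of 847 genes higher and a median of 0.09.

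The list of sex-linked genes known to be transcribed in spermatids had 12 of 19 higher and 1 lower (12 and 1 under all 4 scalings), at a median of 0.90. Akap4, the main anchoring protein of the fibrous sheath of the tail, had 519, 528, 508 and 457 RPM in round spermatids, against 246, 258 and 186 RPM in testis. Cylc1, a cytoskeletal protein of the sperm head, had 61.7, 51.7, 46.4 and 46.3 RPM in round spermatids, against 18.5, 16.6 and 20.3 RPM in testis. Both were higher without overlap, by 1.14 ± 0.11 and 1.43 ± 0.18 (SE). The cysteine-rich genes Cypt2 and Cypt3 differed by 1.29 and 1.14. The lower member was Tktl1, a transketolase-like gene named after its value was seen, at -1.54.

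Several X-linked multicopy families were among the genes with the largest rises, and reads may be split between their near-identical copies, so each copy's value is uncertain. All 7 tested Ssxb genes were higher, at a median of 1.86. Ssxb1 had 34.2, 55.1, 44.5 and 35.8 RPM in round spermatids, against 6.53, 4.86 and 11.1 RPM in testis. All 4 round spermatid libraries exceeded the highest testis library by more than 3 times, and the difference was 2.40 ± 0.26 (SE, limma adjusted p = 6e-07). Rhox3h, a copy of a homeobox gene, had 7.46, 5.17, 7.15 and 3.05 RPM in round spermatids, against 0, 0.628 and 0.570 RPM in testis, a difference of 2.24, while of 10 Rhox genes tested 4 were higher and 3 lower, at a median of 0.03. Of the other X families, 3 of 4 Astx genes and 3 of 4 Cypt genes were higher, and of 14 Mage genes 1 was higher and 7 were lower, beside 23.1% higher and 45.8% lower among all X-linked genes. Of 367 windows of 5000000 bases with at least 20 genes tested, the first of chromosome 14 had the largest share of higher genes and is described for that reason. There 27 of 36 tested genes were higher and 0 lower, all 36 of them predicted, at a median of 1.08.

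**Figure D4:**
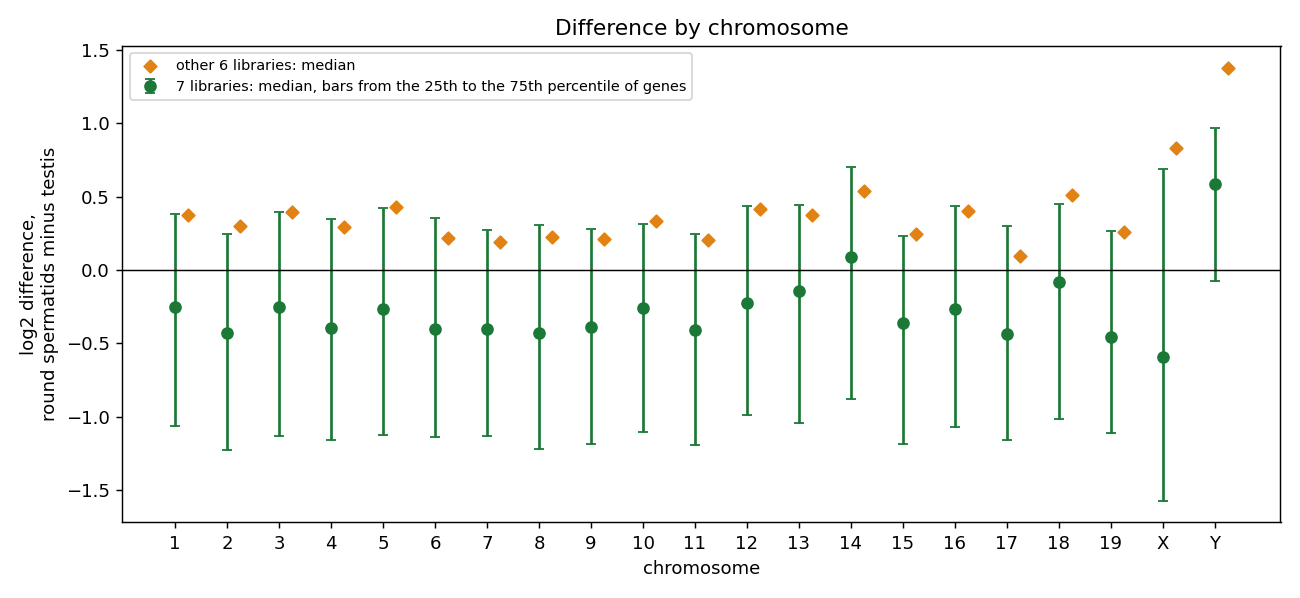
Median log2 difference of round spermatids minus testis for the tested genes of each chromosome, with bars from the 25th to the 75th percentile of genes in the 7 libraries and a diamond for the median in the other 6. The X has the widest bar and a median of -0.59, chromosome 14 and the Y lie above the other chromosomes, and every diamond is above 0.

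The largest rises also included Prame, a leucine-rich repeat gene of the X, at 16.9, 16.8, 20.3 and 22.1 RPM in round spermatids, against 1.92, 2.51 and 7.35 RPM in testis. Gabra5, a GABA receptor subunit, had 14.9, 13.2, 16.5 and 14.98 RPM in round spermatids, against 4.22, 4.32 and 2.28 RPM in testis. Both were higher in every round spermatid library, by 2.17 ± 0.33 and 1.82 ± 0.28 (SE). Myo16 differed by 1.97, and Tex52, Fam24b and Adam26b by 1.81, 1.79 and 1.76. The largest falls outside the lists above were in Lsr, a lipoprotein receptor of tight junctions, Slc52a3, a riboflavin transporter, Col18a1, a basement membrane collagen, and Fads2, a fatty acid desaturase, followed by the semaphorin Sema6c, Ttyh2, the folate carrier Slc19a1, the ligand Gas6 and the adenosine receptor Adora1. Lsr had 1.27, 1.94, 3.10 and 6.46 RPM in round spermatids, against 66.1, 62.1 and 83.1 RPM in testis. Fads2 had 7.26, 10.1, 19.7 and 18.7 RPM in round spermatids, against 237, 254 and 211 RPM in testis. Neither gene's groups overlapped, and the 4 differed by -4.23 (Lsr), -4.12 (Slc52a3), -4.11 (Col18a1) and -4.08 (Fads2). The next 5 differed by -4.07 (Sema6c), -4.001 (Ttyh2), -3.98 (Slc19a1), -3.93 (Gas6) and -3.92 (Adora1).

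Among the 10 genes with most reads in round spermatids, counted without regard to length, were Ldhc, Mael, Odf2, Tcp1, Phf7, Fhl4, Gstm5 and Adam5. Rsph1 and Hsp90aa1 were also among them. Rsph1 differed by 0.26, was at -0.02 after quantile normalization and was not called higher under all 4 scalings. Hsp90aa1 was not called, at -0.10 (limma adjusted p = 0.108) and 0.66 when libraries were centred, and its groups overlapped. Phf7, a reader and ligase of histone marks in spermatids, had 3641, 3857, 3720 and 4035 RPM in round spermatids, against 2595, 2506 and 2516 RPM in testis. Fhl4, a LIM domain protein, had 3406, 3772, 3363 and 3564 RPM in round spermatids, against 2160, 1857 and 1695 RPM in testis. The groups of both were apart, at 0.59 and 0.89. Tcp1, a subunit of the cytosolic chaperonin, differed by 0.35. Adam5 and the glutathione transferase Gstm5 differed by 0.65 and 0.88, and Adam5 was at 0.17 and not called after quantile normalization.

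Splicing factor and nuclear RNA genes were higher in 2 of 20 cases and lower in 16 (1 and 11 under all 4 scalings), at a median of -1.28. In the other 6 libraries their median was 0.57, beside 0.31 for all genes. The higher members were Ddx5 and Clk4, the second named after its value was seen, and Ddx5 was at -0.28 after quantile normalization. Malat1, a nuclear RNA of speckles, had 38.8, 47.3, 34.1 and 36.9 RPM in round spermatids, against 155, 163 and 157 RPM in testis. Srrm1, a splicing co-activator, had 39.7, 36.2, 52.1 and 36.3 RPM in round spermatids, against 141, 149 and 146 RPM in testis. Both were lower without overlap, with differences of -1.99 and -1.81, beside -1.30 for Srsf5 and -1.49 for Rbm39. Across the cell cycle list 8 of the 28 genes tested were higher and 13 lower in round spermatids (6 and 7 under all 4 scalings). The shares of all genes tested were 17.6% and 39.8%. The median of the cell cycle list was -0.29 with no further scaling, 0.47 when centred and 0.05 with voom. Mcm3, a subunit of the replicative helicase, had 3.996, 5.08, 10.9 and 2.84 RPM in round spermatids, against 43.2, 45.3 and 55.7 RPM in testis, and Ccne2, a cyclin of the start of replication, had 8.13, 16.6, 10.8 and 5.61 RPM in round spermatids, against 83.97, 93.99 and 63.4 RPM in testis. Their differences were -3.00 and -2.92. Cenpe, a kinesin that moves chromosomes, was higher in every round spermatid library, at 315, 341, 276 and 321 RPM in round spermatids, against 114, 142 and 128 RPM in testis, a difference of 1.29 ± 0.11 (SE).

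Heat-shock and early response genes were mostly not called, with 1 of 21 higher and 8 lower (1 and 2 under all 4 scalings), beside 39.8% of all genes lower, at a median of -0.37 with no further scaling and 0.39 when centred. Hspa8, a constitutive chaperone, had 102, 117, 147 and 147 RPM in round spermatids, against 381, 362 and 452 RPM in testis. Hspb1, a small heat-shock protein, had 2.20, 1.39, 4.86 and 5.54 RPM in round spermatids, against 15.6, 30.3 and 27.9 RPM in testis. Both were lower without overlap, with differences of -1.64 and -2.58. Dnajb1, a co-chaperone, was higher at 0.74.

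Ribosomal protein genes were lower or not called with no further scaling, and their median changed sign with the scaling. Of 80 tested, 0 were higher and 43 lower, beside 17.6% and 39.8% of all genes tested. Under all 4 scalings 0 were higher and 9 lower, beside 15.8% and 17.9% of all genes. Their median was -0.49, which became 0.27 when libraries were centred. Rpl10a, a protein of the large subunit, had 40.1, 28.2, 55.4 and 34.9 RPM in round spermatids, against 118, 161 and 183 RPM in testis, and Rps3, of the small subunit, had 52.9, 50.8, 65.9 and 60.8 RPM in round spermatids, against 139.9, 149.8 and 187 RPM in testis. Both were lower in every round spermatid library, with differences of -1.95 and -1.44. Nuclear-encoded respiratory chain genes had 7 of 77 higher and 24 lower (5 and 11 under all 4 scalings). Among all genes tested, 17.6% were higher and 39.8% lower. The respiratory median was -0.20 with no further scaling, 0.56 when centred and 0.14 with voom. Cyc1, cytochrome c1, had 23.5, 22.6, 33.6 and 24.6 RPM in round spermatids, against 94.9, 102 and 112 RPM in testis, and Sdhc, a subunit of succinate dehydrogenase, differed by -1.88 beside -1.96 for Cyc1.

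By description, with no test, higher genes had shorter transcripts and more reads than lower ones. The median transcript length was 2286 bases for higher genes and 3330 for lower genes, against 2657 for genes not called. Of the 3716 genes in the quintile of shortest transcripts, 892 were higher and 853 lower, and of the 3716 in the quintile of longest, 457 were higher and 1766 lower. The median difference in the 7 libraries was 0.10 in the shortest quintile and -0.54 in the longest. In the other 6 libraries it ran the other way, at 0.14 and 0.49. Of the 3799 genes in the quintile with most reads, 1665 were higher and 977 lower, and of the 3799 in the middle quintile, 435 were higher and 2050 lower. Input and lysis cannot be told apart from cell type in this relation.

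In the promoters, AACTGCC or its complement was found in 7.26% of 2478 higher genes with a RefSeq promoter, in 4.15% of 5777 lower genes and in 4.83% of 5570 genes not called, against 4.98% of the genes tested and 4.76% of all 27025 promoters of the table. Among 835 genes higher by at least 2-fold it was found in 8.74%. TGACGT was found in 9.89% of higher genes, in 12.3% of lower genes and in 10.9% of genes not called, against 11.3% of the genes tested and 8.37% of all promoters, and in 6.83% of genes higher by at least 2-fold. The longer TGACGTCA, which contains TGACGT, was found in 2.78% of higher genes, in 3.19% of lower genes and in 3.11% of genes not called, against 3.08% of the genes tested and 2.03% of all promoters, and in 2.51% of genes higher by at least 2-fold. Of the 18995 genes tested, 13825 had a promoter in the table. In Piwil1, which fell, the MYB letters begin 75 bases before the start, and in Tekt4 and Pgk2, which rose, 68 and 146 bases before it. TGACGT begins 61 bases before the start in Ldhc and 35 bases before it in Dazl.

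The other 6 libraries gave far fewer calls. Their fit recovered 10 of 100 simulated 4-fold changes, in a simulation with far fewer changed genes than were called in the 7 libraries. That rate was not measured for these data, and the cause of the fewer calls was not tested. Of 16693 genes tested in the other 6, 1052 were higher in round spermatids (6.30%) and 381 lower (2.28%), together 8.58%, at a median of 0.31. Leaving out any 1 of their 3 round spermatid libraries left 0 calls. Without testis KO 1 there were 4160 higher and 2078 lower genes, without testis WT 1 there were 272 and 58, and without testis WT 2 there were 189 and 29. The sets of libraries share no sample. Among genes tested in both, 663 were higher in both, which is 20.1% of those higher in the 7 libraries and 63.1% of those higher in the 6. Genes lower in both numbered 226, which is 3.81% of those lower in the 7 and 59.9% of those lower in the 6. These shares stand beside 3292 higher and 5924 lower genes in the 7, and 1051 and 377 in the 6, of 16035 tested in both. Of the genes higher in the 7, 83.8% were above 0 in the 6, beside 62.0% of all tested in both. Of those lower in the 7, 55.7% were below 0 in the 6, beside 38.0%. Genes in opposite directions numbered 17 and 76.

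**Figure D5:**
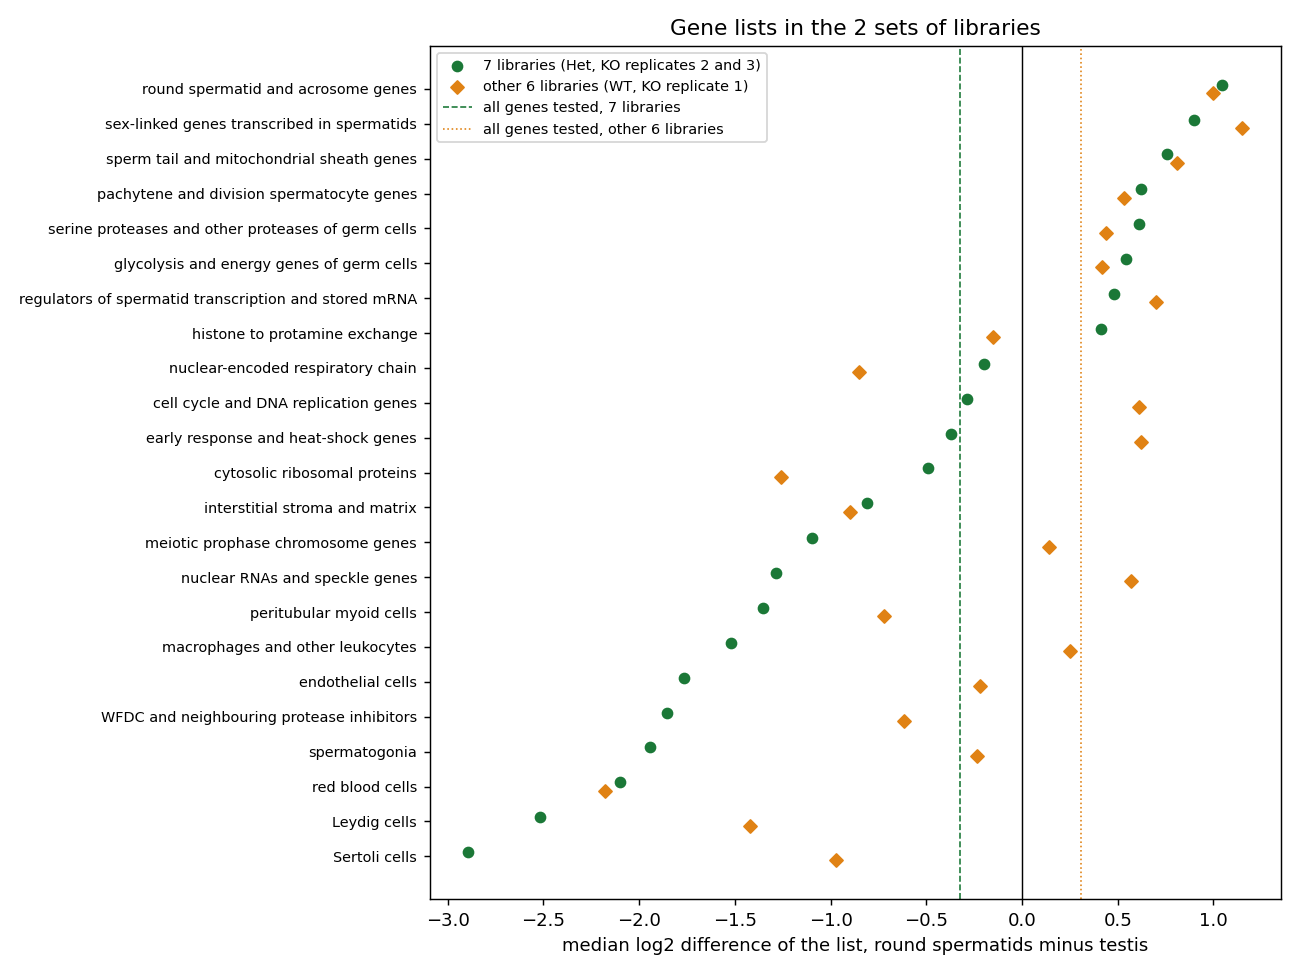
Median log2 difference of round spermatids minus testis for each gene list in the 7 libraries and in the other 6, with vertical lines at the median of all genes (-0.32 and 0.31). Sertoli, Leydig, spermatid and tail lists lie on the same side of 0 in both sets. Speckle, cell cycle, leukocyte, meiotic chromosome and early response medians are below 0 in the 7 libraries and above 0 in the other 6. The same holds for the medians of all genes. The histone exchange median is above 0 in the 7 libraries and below 0 in the other 6.

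The Sertoli median in the other 6 libraries was -0.97, with 1 of 24 genes tested higher and 3 lower. For spermatogonial genes it was -0.24 there, with 0 of 11 higher and 0 lower. Medians there were 0.25 for leukocyte, 0.14 for meiotic chromosome, 0.62 for early response and -0.15 for histone exchange genes. Of the 16 Leydig genes tested in the other 6 libraries, 0 were higher and 4 lower, which were Insl3, Cyp17a1, Hsd3b1 and Akr1cl. Cyp11a1 and Scarb1 missed the threshold there, at -1.72 (limma adjusted p = 0.168) and -0.48 (limma adjusted p = 0.624). In the 7 libraries Insl3, the hormone of testis descent, had 6.86, 5.17, 1.70 and 5.25 RPM in round spermatids, against 49.9, 77.4 and 44.96 RPM in testis. In the other 6 it had 0.175, 0 and 0.573 RPM in round spermatids, against 18.4, 13.2 and 88.7 RPM in testis. Every round spermatid library was below every testis library of its set (the groups did not overlap for 34.0% of the genes tested in the other 6), with differences of -3.41 in the 7 and -4.57 in the other 6. In the other 6 libraries Cyp17a1 had 0, 0 and 0.191 RPM in round spermatids, against 11.99, 8.43 and 13.6 RPM in testis, a difference of -3.52 beside -4.14 in the 7. Cyp19a1, aromatase, and Hsd3b1, a steroid dehydrogenase, differed by -3.76 and -3.23 in the 7 and by -3.20 and -2.87 in the other 6. Aplf, a DNA repair factor, was called in opposite directions. In the 7 libraries it had 7.79, 8.22, 5.16 and 4.68 RPM in round spermatids, against 21.02, 24.3 and 24.8 RPM in testis, and in the other 6 it had 13.7, 13.6 and 12.47 RPM in round spermatids, against 3.09, 1.96 and 0 RPM in testis. Neither pair of groups overlapped, and the differences were -1.74 in the 7 and 2.63 in the other 6. Prss37, a protease relative needed for sperm migration, went the opposite way round. In the 7 libraries it had 45.7, 43.3, 53.1 and 26.1 RPM in round spermatids, against 21.8, 23.9 and 17.1 RPM in testis, and in the other 6 it had 27.2, 44.5 and 45.2 RPM in round spermatids, against 151, 95.2 and 102 RPM in testis. Its differences were 0.94 in the 7 and -1.56 in the other 6.

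The difference between round spermatids and testis was also compared between the libraries labelled KO and those labelled Het. The 1 Het testis library was assumed to vary like the other groups, whose spread alone the fit used for it. Under that assumption 2 of 18995 genes passed (0.0105%), and 749 had an unadjusted p under 0.05. Clu was 1 of them, with a difference of -3.93 overall and a gap that was smaller in KO than in Het, by 1.39 on the log2 scale (limma adjusted p = 0.0217). In round spermatids it had 129 and 122 RPM in the KO libraries, against 45.4 and 46.1 RPM in the Het libraries, and in testis 1159 and 1204 RPM in KO, against 1149 RPM in Het. The sum of all Sertoli genes moved in the same way, at 559 and 577 RPM in KO round spermatids, against 317 and 325 RPM in Het round spermatids, and its part in the result for Clu was not tested. The other gene was the predicted Gm10800, named after its values were seen, at 2.54 (limma adjusted p = 0.0056), which rests on 1 testis library. In round spermatids it had 236 and 165 RPM in KO, against 746 and 627 RPM in Het, and in testis 89.2 and 137 RPM in KO testis, against 2237 RPM in Het testis. Without round spermatid Het 1, round spermatid Het 2 or testis KO 2, 0 genes passed.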

How the data were processed

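RNA was measured by Smart-seq2 in 13 libraries, 7 of which are compared here. The authors deposited 1 table of 30479 genes with log2 RPM (reads per 1000000 reads) per library. The build is mm10 and the tools named are HISAT2 2.1.0, FastQC 0.11.8 and Trim Galore 0.6.6, per the submitters' processing notes; how genes were counted is not given in the sources used here. In the deposited log2 values 0.9 read stands for none, and after scaling by a total per library 99.894% to 99.995% of values in the 7 libraries came out whole within 0.01 read. They were turned back into RPM with genes without a read set to 0. Symbols of 96.8% of genes matched GENCODE M21, from which lengths were taken. The 13 mitochondrial genes had no read, and 0 other columns of sample values were present. Reads carry no molecular identifiers and no strand, so intervals cover counting error only and overlapping or antisense genes cannot be told apart.

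A gene entered a fit if 2 or more of its libraries reached 1 RPM. limma was run on log2(RPM + 1), version 3.58.1 in R 4.3.3 (lmFit, and eBayes with a trend), and gave two-sided p-values with Benjamini-Hochberg adjustment over all genes tested and a threshold of 0.05. The 7 libraries, the other 6, and the difference of the effect between KO and Het were fitted apart. The fits were tested on simulated data with 100 planted 2-fold and 100 planted 4-fold changes. The fit of the 7 libraries recovered 58 and 98 of them, and that of the other 6 recovered 0 and 10. The fit of KO against Het missed most of both. In the simulated data far fewer genes changed than were called in the 7 libraries, and the spread of each gene was drawn towards a median. The rates hold for that setting only. Few calls in the fits of the other 6 and of KO against Het do not show that few genes differ.

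The libraries, the 23 gene lists, the rule for named genes and the alternatives were chosen with earlier results of these data known. Named genes are the 15 with the largest called change per direction without overlap, the 5 per direction that changed alike or oppositely in both sets, the 5 per direction for KO against Het, the 10 with most reads, and 4 to 6 of each list by smallest p or highest level. Predicted genes were left out of the rule, and not every gene it names is described. Alternatives were other scalings, pseudocounts, filters, weights, thresholds, covariates, a transcript length correction, and leaving out each library. Same-numbered round spermatid and testis libraries did not all deviate together, so numbers were not used to pair samples. Promoter sequences are from RefSeq on GRCm38.p6.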

Additional observations from a re-analysis of the deposited data

Results flagged for a closer look

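Within the 4 round spermatid libraries, single libraries stood apart from the others for a few of the results described. Such a gap is expected by chance in about 1 in 20 groups, and 7 of the 175 sets of 4 values looked at had one. Eng was at 7.38 RPM in KO 2, against 1.47 to 2.41 RPM in the other round spermatid libraries. Hbb-bs was at 0.284 RPM in KO 3 and at 0 in the others. Tekt3 was at 679 RPM in KO 3, against 604 to 615 RPM in the others. Gfra1 was at 23.2 RPM in Het 1, against 13.7 to 14.6 RPM in the others. Sema6c was at 1.53 RPM in Het 1, against 0.369 to 0.568 RPM in the others. Adad2 was at 1.13 RPM in Het 1, against 2.48 to 2.64 RPM in the others. The summed sex-linked spermatid genes were at 850.1 RPM in KO 3, against 979 to 997 RPM in the others.

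The log2 difference of round spermatids minus testis was less negative in libraries labelled KO than in those labelled Het for Clu, by 1.39, and was higher in KO by 2.54 for Gm10800, above 0 in KO and below 0 in Het. Each comes from limma's test of the difference itself, in which the spread of the 1 Het testis library was assumed to be that of the other groups. Gm10800 was at 236 and 165 RPM in KO round spermatids, against 89.2 and 137 RPM in KO testis. It was at 746 and 627 RPM in Het round spermatids, against 2237 RPM in Het testis.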

How the results depend on the processing

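Leaving out each of the 7 libraries in turn gave 2849 to 3592 higher and 6655 to 7461 lower genes, and 9525 to 11053 called in all. Totals of called genes were 3093 in a fit of all 13 libraries with genotype as a covariate (1748 higher, 1345 lower), 6993 with the spread taken from all 13 libraries (1689 higher), 6650 with a 2-fold minimum (1163 higher) and 6393 with calls held under all 4 scalings (3400 lower), an alternative chosen after seeing the data. Centring gave 8237 higher and 3405 lower genes and quantile normalization 5481 and 4858. For Wfdc15a the difference was 0.42 to 0.65 across left-out libraries, 0.30 in the fit of all 13, 0.53 with their spread and 0.0245 after length correction, and it lost its call in the last 3 and without testis KO 2. For the other 6 libraries, left-out libraries gave totals of 0 to 6238 (higher 0 to 4160, lower 0 to 2078), quality weights 6656 (4526 and 2130), no filter 567 (407 and 160), and an adjusted p under 0.1 2907 (2126 and 781). There, centring gave 442 higher genes, quantile normalization 688 higher and 657 lower, and voom 708 lower. For KO against Het, 0 to 3 genes passed across left-out libraries, 4 each with a mean of at least 5 RPM, quantile normalization and voom, and 0 with a pseudocount of 0.1 RPM.

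List medians changed sign for histone exchange in the fit of all 13 libraries (-0.0591), for the cell cycle in that fit (0.22), when centred (0.47) and with voom (0.0513), and, when centred, for early response (0.39), ribosomal (0.27) and respiratory genes (0.56); the last also with quantile normalization (0.007) and voom (0.14). Signs and calls were compared for 151 of the genes described, leaving out Wfdc15a. Aplf (0.31), Prss37 (-0.26), Dcn (-1.16), Tnp1 (-0.25), Gba2 (0.29), Pdha2 (0.24) and Slc2a3 (0.0815) changed sign in the fit of all 13 libraries. A further 79 kept their sign in that fit but lost their call, and for 65 the call did not change. With the spread taken from all 13 libraries, 21 lost their call. Tjp1 (0.52), Gba2 (0.35), Boll (0.48), Cyct (0.21), Dlst (0.30) and Pdha2 (0.40) changed sign when libraries were centred. Boll (0.0525) did so with voom, and Cx3cr1 (-0.11), Ddx5 (-0.28) and Ldhc (-0.00) after quantile normalization. The causes were not tested.

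With a replicate block of genotype and number, 3312 genes were higher and 7535 lower in the 7 libraries, and 0 in the other 6. Correlations of deviations between same-numbered libraries of the 7 were 0.113 (Het 1), 0.0666 (KO 2) and 0.174 (KO 3), all above 0 but not all over 0.1. Other pairs of the 7 ran from -0.157 to 0.164. In the other 6 the same-numbered pairs were at -0.0666 (WT 1), -0.0487 (WT 2) and -0.104 (KO 1). Whether same-numbered libraries share a mouse is not stated. edgeR and DESeq2 were not run, because the deposited values are on a log2 scale. At this depth, a gene with no read in a library could still have a level of up to 0.176 to 0.288 RPM. A change that missed the threshold is not shown to be absent.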
